A study of Mus musculus with 24 samples.

Results

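Trimethylation of lysine 4 on histone H3 (H3K4me3) was followed here at the genomic regions where it was found at one oxygen level and not at the other in N1E115 cells, a mouse neuroblastoma line that expresses the nitric oxide synthase NOS1. Cells were kept for 3 days at 4% or at 20% oxygen, with no further treatment named, and chromatin immunoprecipitation with sequencing gave 2 libraries per mark and oxygen level for 5 histone marks. The 4 H3K4me3 peak lists on chromosomes 1 to 19 were merged into 39694 regions wherever peaks overlapped or touched. A region was kept when both libraries of one oxygen level had a peak in it and neither library of the other level did. This gave 190 regions found at 4% oxygen alone (0.479% of all regions) and 331 found at 20% oxygen alone (0.834%), 521 regions in all. The regions were thus chosen by their H3K4me3 peaks, and their H3K4me3 values below are descriptions and carry no test.

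H3K4me3 is written by the SET1 and MLL methyltransferase complexes and is best known from active gene starts, above all those rich in CpG dinucleotides, where it forms broad domains. Weaker and narrower H3K4me3 also occurs at active enhancers, which carry H3K27ac and H3K4me1, and at bivalent promoters, where it lies together with the Polycomb mark H3K27me3. H3K36me3 is laid down in the bodies of transcribed genes. Several demethylases that remove H3K4me3 need molecular oxygen, as do those that remove H3K27me3.

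N1E115 is a single established line. The labels do not say if the paired libraries were grown apart, so their spread may be technical. Replicate 1 of each mark is called set 1 here and replicate 2 set 2. Set 2 was read on 1 flow cell, while in set 1 the 4% and 20% H3K4me3 libraries were on different ones, so oxygen and flow cell cannot be told apart there. In set 2 the 4% H3K4me3 and H3K4me1 libraries were on lane 6 and the 20% ones on lane 7, so lane and oxygen cannot be told apart for these marks. The set 1 H3K4me1 libraries shared a flow cell but were on different lanes, and those of H3K27ac, H3K36me3 and H3K27me3 did not share a flow cell. The H3K4me3 lists held 25844 peaks at 4% oxygen and 27454 at 20% oxygen in set 1, and 48486 and 49207 in set 2. Regions separated far more often by set than by oxygen: 2851 had a peak in both set 2 libraries and in neither set 1 library, and 418 the other way round. Of 16 noradrenergic neuroblastoma markers, 12 had a region found in all 4 libraries at a gene end, against 3 of 21 markers of other cell types. Gata3, Ddc, Nefl and Nefm were the neuroblastoma markers without one.

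Few of the separating regions touched a promoter window. Most of the windows touched held fewer CpG dinucleotides than the median of those under regions found in all 4 libraries. RefSeq promoter windows (GRCm38.p6, 250 bases before to 50 bases after a start) overlapped a region found at 4% alone in 8 cases and a region found at 20% alone in 15 cases. Some genes, Manf, Foxp2, Hmox1 and Nme5 among them, had no window, so starts can be missed. An overlap of 1 bp counted, so the start itself need not lie under the region, as at Vill, Tspo2 and Cacnb4. A window that also touched a region found in all 4 libraries was still counted here. The start of Selenov, for example, lay under such a region 18 bp from the one found at 4% alone. The windows under regions found at 4% alone held a median of 5 CpG dinucleotides (0 to 15), and those under regions found at 20% alone a median of 8 (1 to 43). The 13013 windows under regions found in all 4 libraries had a median of 21, the 421 under H3K4me3 regions with any other pattern a median of 7, and the 17939 under no region a median of 3. The windows of Ism2, Cacnb4, Gpr160 and Gm42199, all at 20% alone, held 43, 40, 26 and 25 CpG and lay above the median of 21. Not all windows are separate stretches. Those of Gpr160 and Gm42199 overlap on opposite strands under 1 region, and 2 of the 8 at 4% alone are overlapping Apol9a windows. The 4 windows printed first belong to described regions found at 4% alone and the 4 after them to regions found at 20% alone. They are shown because they span the range from a window with no CpG to a CpG island. Each CpG is in capitals and each window is on the strand of its gene.

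Tcf12, chr9:71896047-71896346, minus strand: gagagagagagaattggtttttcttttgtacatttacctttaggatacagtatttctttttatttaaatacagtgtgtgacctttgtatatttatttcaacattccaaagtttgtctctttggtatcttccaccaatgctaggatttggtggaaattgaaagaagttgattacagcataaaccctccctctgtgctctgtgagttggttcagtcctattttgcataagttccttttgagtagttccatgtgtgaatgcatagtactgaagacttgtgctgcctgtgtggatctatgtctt

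Prr9, chr3:92123898-92124197, minus strand: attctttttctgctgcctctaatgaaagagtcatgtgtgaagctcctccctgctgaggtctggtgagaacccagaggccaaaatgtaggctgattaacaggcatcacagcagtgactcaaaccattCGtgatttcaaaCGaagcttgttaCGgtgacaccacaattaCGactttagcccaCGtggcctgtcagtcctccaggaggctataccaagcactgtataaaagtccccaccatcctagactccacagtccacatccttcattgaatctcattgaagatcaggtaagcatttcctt

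Apol9a, chr15:77410985-77411284, minus strand: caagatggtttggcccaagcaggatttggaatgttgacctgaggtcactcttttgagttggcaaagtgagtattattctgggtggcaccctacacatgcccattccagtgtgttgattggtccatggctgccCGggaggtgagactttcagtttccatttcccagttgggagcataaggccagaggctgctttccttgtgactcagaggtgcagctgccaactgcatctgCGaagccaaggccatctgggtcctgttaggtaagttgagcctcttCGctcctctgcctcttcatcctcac

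Vill, chr9:119052528-119052827, plus strand: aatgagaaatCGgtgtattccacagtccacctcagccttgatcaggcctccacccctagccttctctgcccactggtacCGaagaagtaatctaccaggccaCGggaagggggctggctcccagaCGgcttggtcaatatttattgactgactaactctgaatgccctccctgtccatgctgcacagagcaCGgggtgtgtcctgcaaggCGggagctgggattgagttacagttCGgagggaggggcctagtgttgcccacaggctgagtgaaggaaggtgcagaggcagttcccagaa

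Gbp5, chr3:142496684-142496983, plus strand: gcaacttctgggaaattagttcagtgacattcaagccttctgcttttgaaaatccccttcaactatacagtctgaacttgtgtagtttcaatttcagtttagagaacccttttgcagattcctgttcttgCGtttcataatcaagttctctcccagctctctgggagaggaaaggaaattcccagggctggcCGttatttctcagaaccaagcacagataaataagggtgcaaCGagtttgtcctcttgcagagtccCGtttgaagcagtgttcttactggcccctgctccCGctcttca

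Gm40614, chr10:24132435-24132734, minus strand: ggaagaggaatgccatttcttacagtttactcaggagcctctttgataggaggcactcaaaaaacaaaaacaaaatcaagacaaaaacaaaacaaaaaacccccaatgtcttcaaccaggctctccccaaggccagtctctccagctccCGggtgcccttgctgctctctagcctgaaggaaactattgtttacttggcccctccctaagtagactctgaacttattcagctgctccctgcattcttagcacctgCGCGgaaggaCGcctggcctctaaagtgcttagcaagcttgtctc

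Tspo2, chr17:48451452-48451751, minus strand: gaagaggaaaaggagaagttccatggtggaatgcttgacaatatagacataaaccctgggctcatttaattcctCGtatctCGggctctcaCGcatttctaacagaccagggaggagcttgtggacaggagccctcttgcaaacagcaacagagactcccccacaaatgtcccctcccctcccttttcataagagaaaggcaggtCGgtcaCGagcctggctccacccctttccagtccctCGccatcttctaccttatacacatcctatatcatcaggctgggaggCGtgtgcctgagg

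Cacnb4, chr2:52676094-52676393, minus strand: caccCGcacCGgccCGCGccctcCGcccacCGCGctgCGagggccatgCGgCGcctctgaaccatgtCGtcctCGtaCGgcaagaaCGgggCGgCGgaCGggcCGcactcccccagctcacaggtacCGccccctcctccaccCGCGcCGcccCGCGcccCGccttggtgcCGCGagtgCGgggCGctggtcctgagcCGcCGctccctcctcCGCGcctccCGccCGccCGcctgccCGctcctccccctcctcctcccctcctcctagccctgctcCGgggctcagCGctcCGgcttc

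The H3K4me3 region covered all 300 bases of the Tcf12 window and all 300 of the Gbp5 window, and 72 to 106 bases of the Prr9, Apol9a and Vill windows. It covered 185 bases of the Gm40614 window, 127 of the Tspo2 window and 194 of the Cacnb4 window. The CpG count was 0 at Tcf12, 5 at Prr9, 3 at Apol9a and 7 at Vill, against 5 at Gbp5, 4 at Gm40614, 7 at Tspo2 and 40 at Cacnb4. Cacnb4, an auxiliary subunit of voltage-gated calcium channels, was thus the CpG island among these 8 windows. The letters ACGTG, a core of the element bound by hypoxia-inducible factors, were searched on both strands. The other form of that core, GCGTG, was searched likewise, and a site of one form cannot be a site of the other. At least 1 form occurred in 1 of 8 windows under regions found at 4% alone. It occurred in 7 of 15 under regions found at 20% alone, the overlapping Gpr160 and Gm42199 windows among them. This compares with 63.7% of windows under regions found in all 4 libraries and 44.1% of all 31396 windows. Among the printed windows, Prr9 held ACGTG and Tspo2 held GCGTG. The TATA box letters TATAAA, searched on the strand of the gene alone, occurred in 1 window of each direction, at Prr9 for 4% alone, and in 8.32% of all windows. No region of either direction overlapped a tabled microRNA hairpin.

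In both directions the separating regions were narrow. The merged region had a median width of 539.5 bp at 4% alone (369 to 1798 bp) and 538 bp at 20% alone (367 to 1486 bp), against 2203 bp for regions found in all 4 libraries. Only 9 of 190 regions found at 4% alone (4.74%) and 11 of 331 found at 20% alone (3.32%) were wider than 1000 bp, whereas 87.9% of regions found in all 4 libraries were. No separating region reached 2500 bp, the width that 43.3% of the regions found in all 4 libraries exceeded. The middle 50% of regions lay between 439.5 and 699 bp at 4% alone and between 431 and 646 bp at 20% alone.

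**Figure D1:**
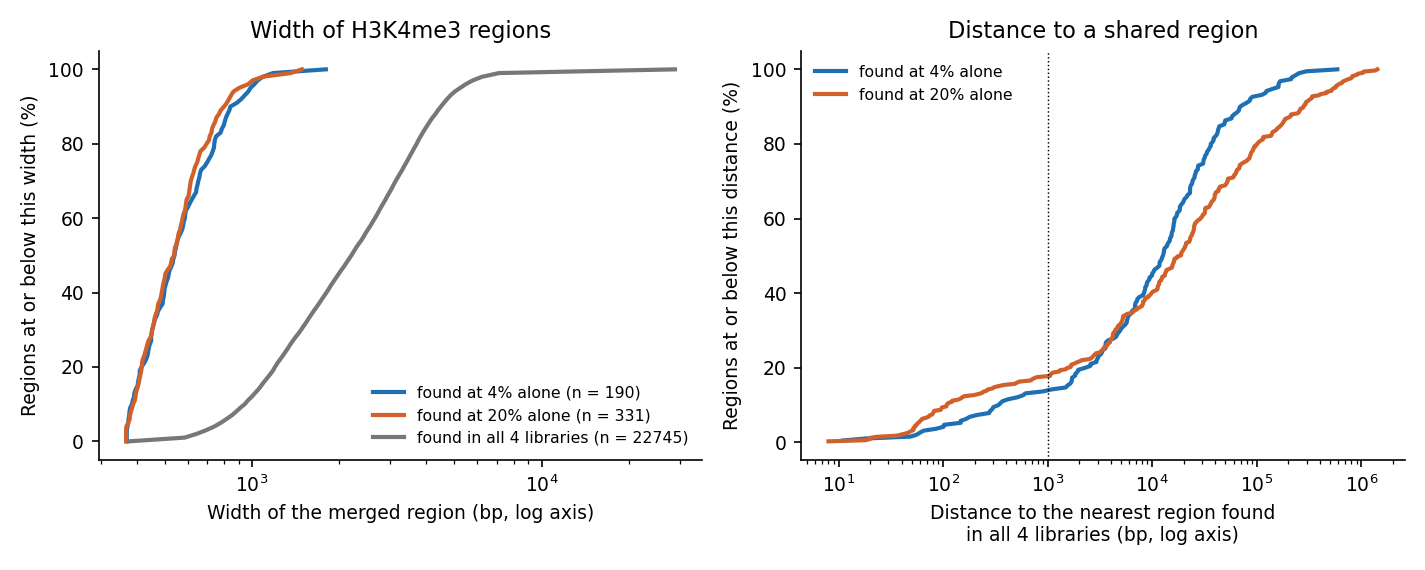
Left, the cumulative share of H3K4me3 regions (%) by merged width in bp on a log axis for regions found at 4% alone (blue), at 20% alone (orange) and in all 4 libraries (grey). Both directions have medians near 540 bp, against 2203 bp for the grey curve. Right, the cumulative share by distance in bp (log axis) to the nearest region found in all 4 libraries, with a dotted line at 1000 bp. The orange curve lies above the blue one below 1000 bp and to the right of it at large distances.

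Within single libraries, the length covered by peaks at the regions found at 4% alone had a median of 456.5 bp in 4% set 1 and 319 bp in 4% set 2. At the regions found at 20% alone it was 459 bp in 20% set 1 and 276 bp in 20% set 2. The shortest covered length, 369 and 173 bp at 4% and 367 and 160 bp at 20%, was also the shortest in the whole list of each library. The authors' peak score, a −log10 value, ranked these peaks low: the median region found at 4% alone stood at percentile 6.84 of its set 1 list and 21.2 of its set 2 list. For regions found at 20% alone the medians were 9.10 in set 1 and 24.4 in set 2. Regions found in all 4 libraries had medians between 55.5 and 72.1. A score of 10 or more in both libraries was reached by 12 of 190 regions at 4% alone and 33 of 331 at 20% alone. Most of the separating regions were therefore short peaks from the lower part of each list.

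The members depend on list length. When the 25844 highest-scoring peaks of every list were used, 112 regions were found at 4% alone and 183 at 20% alone, and only 8 of the 190 and 15 of the 331 overlapped one of them. The 8 were those at St3gal1, Prr9, Ppp1r14c, Ldlrad4, Dpf3, Galnt7, Il17rd and a region without a gene on chromosome 19. Among the 15 were Gm40614, Foxp2, 4930528D03Rik, Celsr1 and Pla2g4d. A minimum score of 3 had little effect, with 190 and 325 regions, and 181 of the 190 and 311 of the 331 overlapped one of them. The values just inside and just outside the rule were alike in size. The weakest regions kept at 4% alone lay in Gse1, Cd86 and Ttc41, with weaker scores of 2.11, 2.60 and 2.73. The weakest kept at 20% alone lay at Gm36059, Mia2 and Gm30456, with weaker scores of 2.25, 2.38 and 2.38. Just outside, regions at Laptm5 and Pgs1 had peaks in both 4% libraries and a single 20% peak of score 2.17 and 2.25. Regions at Ergic1 and Plin5 had peaks in both 20% libraries and a single 4% peak of score 2.44 and 2.78. In all, 816 regions had both 4% peaks and 1 further 20% peak, and 1681 had both 20% peaks and 1 further 4% peak.

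Most regions of either direction lay away from gene ends. An end of a RefSeq protein-coding or long noncoding gene record lay within 1000 bp of 24 of the 190 regions at 4% alone (12.6%) and 36 of the 331 at 20% alone (10.9%), against 51.7% of regions found in all 4 libraries. Both ends of a record were used because the gene table gives no strand. A further 106 regions at 4% alone (55.8%) and 149 at 20% alone (45.0%) lay inside a gene record, and 60 (31.6%) and 146 (44.1%) lay outside all records. More than 100 kb from any gene end lay 5 regions at 4% alone (2.63%) and 37 at 20% alone (11.2%), with 3.84% over all regions. The distance to the nearest region found in all 4 libraries had a median of 12713 bp at 4% alone and 18870 bp at 20% alone. At 100 kb or more from such a region were 14 of 190 at 4% alone and 67 of 331 at 20% alone. These isolated regions made up 7.37% at 4% alone and 20.2% at 20% alone.

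Among the 15 longest regions found at 4% alone, ranked by the smaller covered length of the 2 libraries, 14 had a gene within 10 kb. The longest, chr15:67127151-67128948 inside St3gal1, which encodes a sialyltransferase acting on O-linked glycans, was covered over 950 bp in 4% set 1 and 1798 bp in 4% set 2. Its peak stood at percentile 6.47 of the scores in 4% set 1 and at 58.3 in 4% set 2. Prr9, a gene of the epidermal differentiation cluster, carried a region of 893 and 1084 bp at chr3:92122886-92123969. Elfn1, a synaptic adhesion protein, had 721 and 781 bp at chr5:139963900-139964734 within its record. These 3 were the ones of the 8 longest that were longer in set 2 than in set 1. The internal region of Tcf12, which encodes an E-protein transcription factor, had 997 and 651 bp with scores of 24.8 and 14.6. Ugcg, the enzyme that makes glucosylceramide, had 976 and 596 bp, and Btd, which encodes biotinidase, 963 and 667 bp. Anxa2, a calcium-dependent membrane-binding protein, had 586 and 594 bp, and Ppp1r14c, an inhibitor of protein phosphatase 1, 606 and 594 bp. Rasal2, Synpo2, Ccdc33, Selenov, Zfp710, a region near Gm32650 and a region without a gene on chromosome 5 completed the 15, with 534 to 737 bp in the shorter library.

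Among the 15 longest regions found at 20% alone, 4 had no gene within 10 kb. The longest, chr3:144098401-144099649, was one of them and was covered over 1249 bp in 20% set 1 and 938 bp in 20% set 2. The next, chr3:11476429-11477430, had covered lengths of 1002 and 818 bp, and its scores stood at percentile 47.2 in 20% set 1 and 55.9 in 20% set 2, the highest of this direction in each list. It lay 345799 bp from the nearest gene end and 1035822 bp from the nearest region found in all 4 libraries, and no library of the other 4 marks overlapped it. Foxp2, a forkhead transcription factor of neurons, carried a region of 1123 and 637 bp at chr6:15405170-15406292 with scores of 26.2 and 20.5. Edil3, a secreted integrin ligand, had 877 and 725 bp and Lama2, a laminin chain, 865 and 696 bp. The start of Gbp5, an interferon-induced GTPase, was covered over 634 and 762 bp at chr3:142496578-142497349. Prkg1, the cGMP-dependent protein kinase downstream of nitric oxide, had 1314 and 589 bp at chr19:31423963-31425448, deep inside its long gene, and 367 and 370 bp at a second region, chr19:31755894-31756326. Atxn7l1, Tspo2, Gm34032, Gm40614, 4930528D03Rik, a region near 9630028I04Rik and regions without a gene on chromosomes 14 and 8 completed the 15, with 582 to 676 bp in the shorter library.

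**Figure D2:**
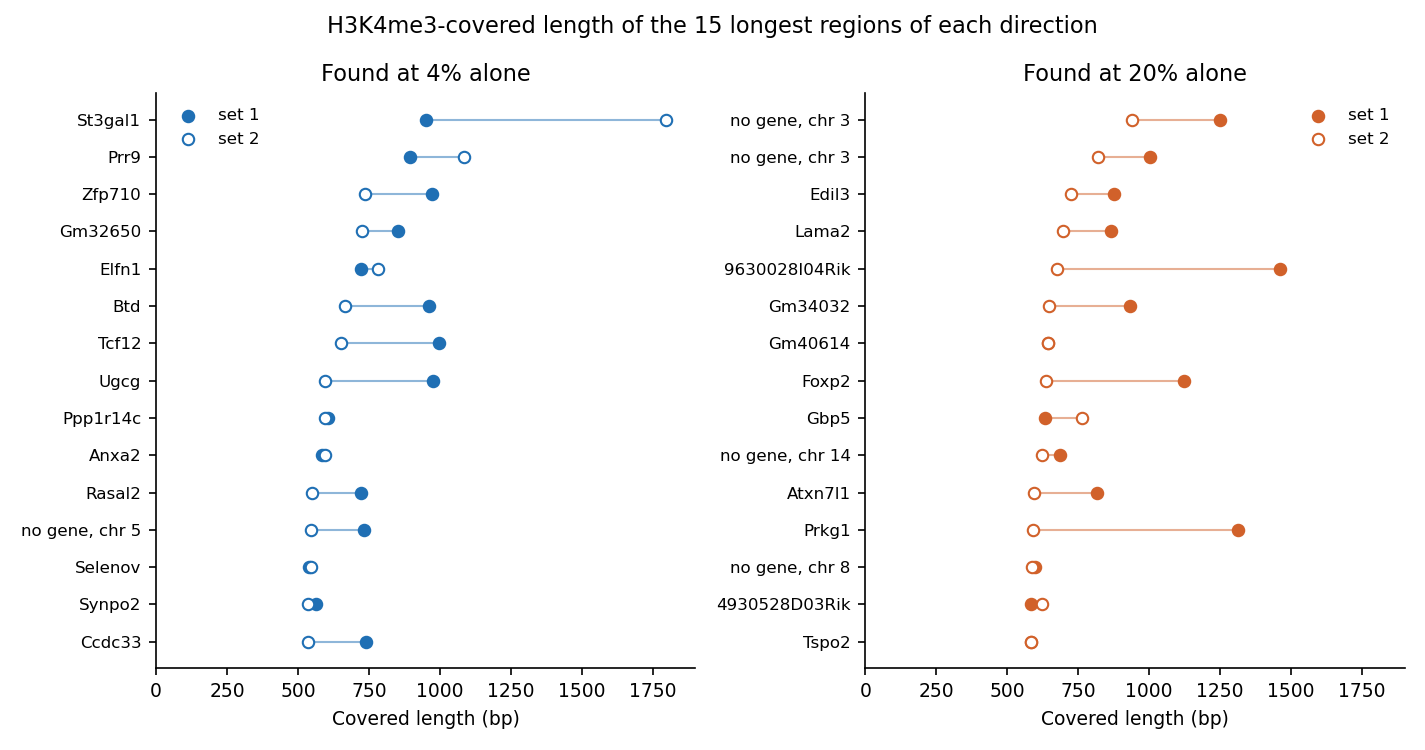
Length covered by H3K4me3 peaks (bp) at the 15 longest regions found at 4% alone (left, blue) and at 20% alone (right, orange), in set 1 (filled) and set 2 (open). Names are the genes overlapped or within 10 kb. St3gal1 reaches 1798 bp in 4% set 2, and most other regions are longer in set 1, at both oxygen levels.

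The covered length was greater in set 1 than in set 2 at 150 of 190 regions found at 4% alone and at 295 of 331 found at 20% alone. Most genes held a single region. Nrxn2, a presynaptic neurexin, had 2 regions found at 4% alone, and Prkg1, Atxn7l1, Nckap5, Prickle2, Tenm2 and Thsd4 had 2 each found at 20% alone. Maml3, Rbms3 and Gm34295 held 1 of each direction. Both directions occurred on all 19 chromosomes.

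The other marks, read from libraries that had no part in choosing the regions, differed between the 2 directions, above all H3K27ac. H3K27ac overlapped 77.4% and 79.5% of the regions found at 4% alone in the 4% libraries of sets 1 and 2, and 73.2% and 63.7% in the 20% libraries. At regions found at 20% alone it overlapped 32.9% and 32.6% in the 4% libraries and 35.3% and 34.7% in the 20% libraries. In every library, then, H3K27ac lay on a much larger share of the regions found at 4% alone, by 28.9 to 46.8 percentage points. Regions found in all 4 libraries had 80.1% and 84.9% in the 4% libraries and 79.9% and 82.5% in the 20% libraries. The 2758 of these that were at most 1000 bp wide had 53.2% and 59.3% in the 4% libraries and 51.1% and 53.0% in the 20% libraries. Regions at 4% alone stood above these narrow regions in every library and regions at 20% alone below them. Over all H3K4me3 regions the share was 60.9% and 67.2% in the 4% libraries and 60.4% and 64.0% in the 20% libraries.

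**Figure D3:**
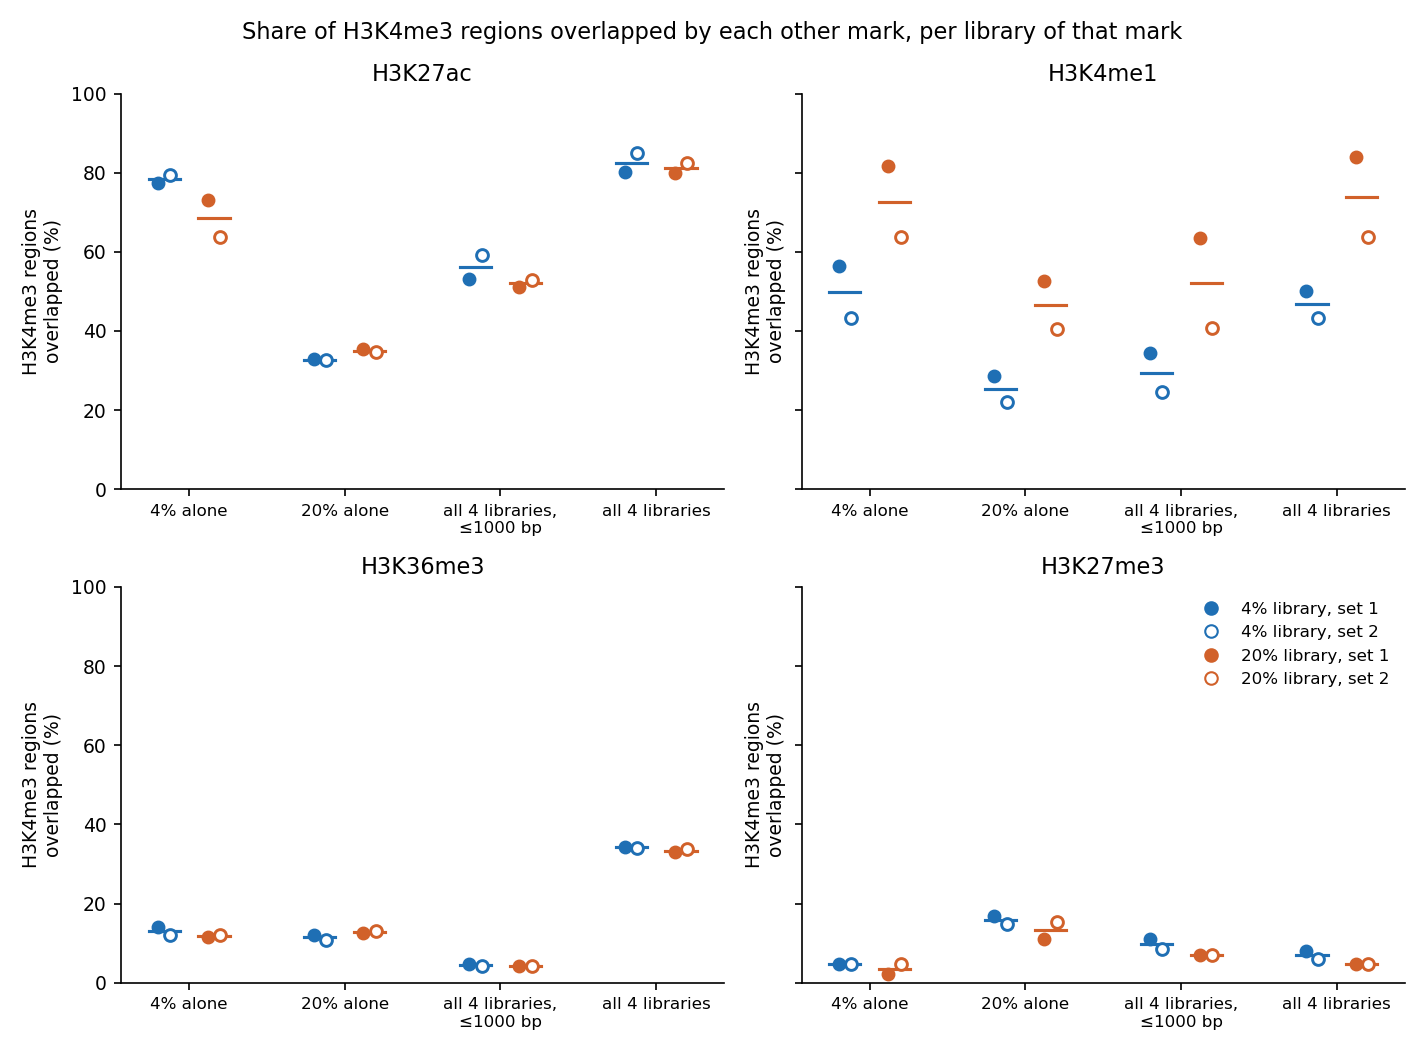
Share of H3K4me3 regions (%) overlapped by at least 1 bp of each other mark, by library of that mark (4% blue, 20% orange, set 1 filled, set 2 open; bars are means of 2 libraries). H3K27ac lies between 63.7% and 79.5% at regions found at 4% alone and between 32.6% and 35.3% at regions found at 20% alone, and H3K4me1 is lower in the 4% libraries in every class.

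The difference between the directions was also present with equal peak numbers, where few of the same regions were left. There H3K27ac overlapped 75.9% and 87.5% of the 112 regions at 4% alone in the 4% libraries and 72.3% and 83.9% in the 20% libraries. For the 183 regions at 20% alone it was 24.6% and 27.9% in the 4% libraries and 27.3% and 28.4% in the 20% libraries. H3K27ac was present in all 4 libraries at 113 of 190 regions found at 4% alone (59.5%) and at 89 of 331 found at 20% alone (26.9%). It was in no library at 29 regions at 4% alone (15.3%) and 191 at 20% alone (57.7%). Over all H3K4me3 regions, 54.3% had it in all 4 libraries and 28.4% in none. Among the 15 longest regions, H3K27ac was in all 4 libraries at 10 found at 4% alone, Elfn1, Ugcg, Btd, Anxa2 and Prr9 among them, and at 3 found at 20% alone, Lama2, Gm34032 and the region near 9630028I04Rik.

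**Figure D4:**
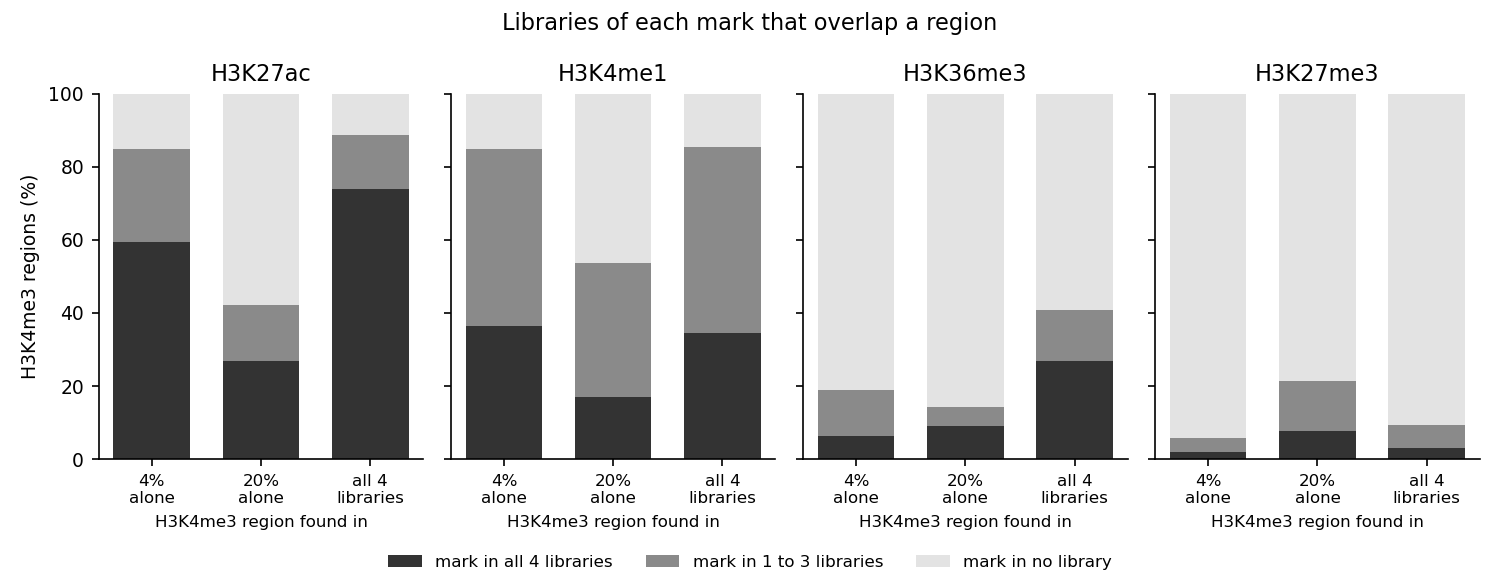
Share of H3K4me3 regions (%) at which a mark was found in all 4 of its libraries (dark), in 1 to 3 (mid grey) or in none (light), for regions found at 4% alone, at 20% alone and in all 4 H3K4me3 libraries. H3K27ac was in no library at 15.3% of regions at 4% alone and 57.7% at 20% alone, and H3K27me3 was in no library at 94.2% and 78.5%.

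Between oxygen levels, the H3K27ac share of regions found at 4% alone was higher in the 4% libraries. It averaged 78.4% ± 1.49 in the 4% libraries and 68.4% ± 6.70 in the 20% libraries (SD, n = 2 each), a difference of 10 percentage points, 4.21 in set 1 and 15.8 in set 2. The libraries of the 2 levels did not overlap. The exact two-sided permutation p over libraries was 0.333, the smallest that 2 against 2 libraries allow, so no comparison of this kind could pass 0.05. The difference was 5.26 points without the second 20% library. It was 3.57 points with equal H3K4me3 peak numbers and 8.42 points with equal H3K27ac peak numbers. In both of these settings the libraries of the 2 levels overlapped (exact permutation p = 0.667 each). At regions found at 20% alone the share averaged 32.8% ± 0.214 in the 4% libraries and 35.0% ± 0.427 in the 20% libraries (SD, n = 2 each), a difference of −2.27 points (exact permutation p = 0.333). It was −2.42 in set 1 and −2.11 in set 2. When H3K27ac had to cover 50% of the region it was −0.60 points (exact permutation p = 1). It was −1.64 points with equal H3K4me3 peak numbers and −1.81 points with equal H3K27ac peak numbers (exact permutation p = 0.667 each). In each of these settings the libraries of the 2 levels overlapped. Regions found in all 4 H3K4me3 libraries differed by 1.31 points and all regions by 1.84 points, with overlapping libraries. The narrow ones, at most 1000 bp wide, differed by 4.22 points without overlap (exact permutation p = 0.333). The gap between the directions was 44.4 and 46.8 points in the 4% libraries and 37.8 and 28.9 points in the 20% libraries, 12.3 points greater at 4% (exact permutation p = 0.333). The 12 main tests, of each mark's share in each direction and of its gap between the directions, were adjusted together. No Benjamini-Hochberg adjusted p among them was below 0.571. The other exact permutation p-values given here were not adjusted.

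H3K27ac itself separated by oxygen, in the same direction as H3K4me3, at a handful of regions. It was in both 4% libraries and neither 20% library at 10 of the 190 regions found at 4% alone (5.26%), where 1.03% of all H3K4me3 regions had that pattern. These 10 were at Rasal2, Gm38601, Vill, Anxa11, Apol9a, Phip, Tex14 and Gbe1, near Eif2b5, and at chr6:100126670-100127454. The reverse pattern of H3K27ac occurred at 1 of the 190. Of the regions found at 20% alone, 3 of 331 (0.906%) had H3K27ac in both 20% libraries and neither 4% library, where 0.423% of all regions did. None of these 3 had a gene within 10 kb. A further 2 had the reverse pattern.

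At Vill, which encodes a villin-like actin-binding protein, H3K4me3 covered 967 bp in 4% set 1 and 522 bp in 4% set 2 at chr9:119051462-119052625. H3K27ac covered 656 and 280 bp of it in the 4% libraries and none in the 20% libraries, while H3K27me3 covered all 1164 bp in all 4 libraries. At Apol9a, an interferon-induced member of the apolipoprotein L family, H3K4me3 covered 794 and 464 bp at chr15:77410297-77411090. H3K27ac covered 492 and 724 bp there in the 4% libraries and none in the 20% libraries, and H3K4me1 covered 556 and 389 bp in the 20% libraries and none in the 4% libraries. At Gbe1, the glycogen branching enzyme, the region chr16:70352158-70352605 inside the gene had 448 and 175 bp of H3K4me3. H3K27ac covered 114 and 276 bp of it in the 4% libraries and none in the 20% libraries, and the nearest gene end was 38209 bp away. At Rasal2, a Ras GTPase-activating protein, H3K27ac covered 588 and 467 bp in the 4% libraries and none in the 20% libraries, whereas H3K4me1 was present in all 4. At Anxa11, another annexin, H3K27ac covered 306 and 406 bp in the 4% libraries and none in the 20% libraries. These regions were picked for this pattern of peaks, and the absence of a peak in the 20% lists does not show that the mark was absent.

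H3K4me1 was lower in the 4% libraries at every class of region compared. Its lists were also shorter at 4%, with 98482 peaks in set 1 and 116453 in set 2, against 124452 and 123248 at 20%. With equal H3K4me1 peak numbers the differences were −19.5 points at regions found at 4% alone and −19.2 at those found at 20% alone. With the full lists H3K4me1 overlapped 56.3% and 43.2% of regions at 4% alone in the 4% libraries and 81.6% and 63.7% in the 20% libraries. This was a difference of −22.9 points, or −13.9 points without the first 20% library. For regions at 20% alone it was 28.7% and 22.1% in the 4% libraries and 52.6% and 40.5% in the 20% libraries, a difference of −21.1 points. Over all regions the difference was −23.0 points (exact permutation p = 0.333 for each difference with all 4 libraries). Within each library H3K4me1 lay on 21.1 to 29.0 points more of the regions found at 4% alone than of those found at 20% alone. Its shares at regions found in all 4 H3K4me3 libraries were 50.1% and 43.3% in the 4% libraries and 83.9% and 63.8% in the 20% libraries. At those of them at most 1000 bp wide they were 34.4% and 24.5%, and 63.4% and 40.7%. H3K4me1 was in both 20% libraries and neither 4% library at 13 regions at 4% alone (6.84%) and 33 at 20% alone (9.97%), with 9.17% over all regions. The reverse pattern, held by 0.0403% of all regions, occurred at 0 regions of either direction. H3K27ac and H3K4me1 were each in all 4 libraries at 58 regions at 4% alone (30.5%) and 40 at 20% alone (12.1%). The same held at 25.2% of all regions and at 32.7% of regions found in all 4 H3K4me3 libraries. Among the latter, those at most 1000 bp wide had 14.97%.

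H3K27me3, the Polycomb mark, lay on more of the regions found at 20% alone. It overlapped 4.74% of regions at 4% alone in both 4% libraries, and 2.11% and 4.74% in the 20% libraries. At regions found at 20% alone it overlapped 16.9% and 14.8% in the 4% libraries and 11.2% and 15.4% in the 20% libraries. Regions at 4% alone minus regions at 20% alone, the difference was −12.2 to −9.07 points over the 4 libraries. Regions found in all 4 H3K4me3 libraries lay between 4.63% and 8.05%, and the narrow ones among them between 7.0% and 11.1%. The oxygen levels overlapped in both directions (exact permutation p = 1 at 4% alone and 0.667 at 20% alone). All 4 libraries carried H3K27me3 at 4 regions found at 4% alone (2.11%), those at Vill, Gpr35, Il31ra and Adgrb1. They did so at 26 found at 20% alone (7.85%), against 4.22% over all regions. Gpr35 is a G protein-coupled receptor, Il31ra a cytokine receptor and Adgrb1 an adhesion receptor. In addition, H3K27me3 was in both 4% libraries and neither 20% library at 4 regions found at 20% alone (1.21%, with 0.849% over all regions). The mirror image, H3K27me3 in both 20% libraries alone, occurred at 0 regions found at 4% alone, with 0.0705% over all regions.

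Foxp2, Gbp5, Gm40614 and Atxn7l1 were the regions with H3K27me3 in all 4 libraries among the 15 longest found at 20% alone. At Gbp5, H3K27me3 covered all 772 bp of the region in every library, and no library of H3K27ac, H3K4me1 or H3K36me3 overlapped it. At Foxp2 it covered 1123 and 892 bp in the 4% libraries and 692 and 1123 bp in the 20% libraries, again with no H3K27ac. Gm31632, 9430014N10Rik, Thsd4, Gm34790, Pla2g4d and Tenm2 also carried it in every library. Tenm2 encodes a teneurin, a synaptic adhesion protein, and Pla2g4d a cytosolic phospholipase. H3K27me3 in all 4 libraries without H3K27ac in any was seen at 2 regions at 4% alone (1.05%) and 25 at 20% alone (7.55%). It was seen at 1.77% of regions found in all 4 libraries, 4.17% of those at most 1000 bp wide and 3.36% of all regions.

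Regions with none of the 4 other marks in any library numbered 13 at 4% alone (6.84%) and 72 at 20% alone (21.8%), against 4.07% of regions found in all 4 libraries and 15.2% of the narrow ones. Among regions found at 20% alone that lay at least 100 kb from a region found in all 4 libraries, 27 of 67 had no other mark and 53 of 67 had no H3K27ac. At 4% alone these counts were 2 of 14 and 3 of 14. The regions at chr3:11476429-11477430 and chr14:114101320-114102076 were the ones among the 15 longest found at 20% alone with no other mark. The region over part of the Cacnb4 promoter window, chr2:52676200-52676750, was unmarked as well.

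Next to a region found in all 4 libraries, the 2 directions had different surroundings. Within 1000 bp of such a region lay 26 regions found at 4% alone (13.7%) and 58 found at 20% alone (17.5%). H3K36me3 overlapped 55.2% and 50% of these 58 in the 4% libraries and 62.1% and 62.1% in the 20% libraries. At the other 273 regions found at 20% alone the share was between 2.20% and 2.93%, so 28 of the 30 regions of this direction with H3K36me3 in all 4 libraries stood next to a shared region. H3K36me3 at the 26 regions found at 4% alone was between 3.85% and 11.5%. H3K27ac was the other way round, with 76.9% to 80.8% at the 26 regions at 4% alone and 19% to 27.6% at the 58 at 20% alone. H3K27me3 overlapped 0 of the 26.

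The neighbour itself also differed. A start with a promoter window lay under it for 35 of the 58 regions found at 20% alone. Of these regions, 20 were on the transcribed side of the start, 3 on the upstream side and 12 beside starts facing both ways. At 4% alone, 22 of the 26 neighbours had no such start. Some genes near these regions, Manf at 20% alone and Xkr4 at 4% alone among them, had no window. Starts can therefore be missed in both directions. The neighbour had a median width of 1259.5 bp at 4% alone and 3299.5 bp at 20% alone. Examples at 20% alone were Spsb2, where the region chr6:124810559-124810953 also lies within 1000 bp of an end of the glycolytic gene Tpi1, and Mia2, which encodes a protein of secretory export. H3K36me3 covered all 395 bp of the Spsb2 region and all 535 bp of the Mia2 region in all 4 libraries. The neighbour of the 58 was covered over a median of 2576.5 bp in 4% set 1 and 2951.5 bp in 4% set 2, against 3205.5 bp in 20% set 1 and 2880 bp in 20% set 2, so its length differed between oxygen levels in opposite directions in the sets.

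**Figure D5:**
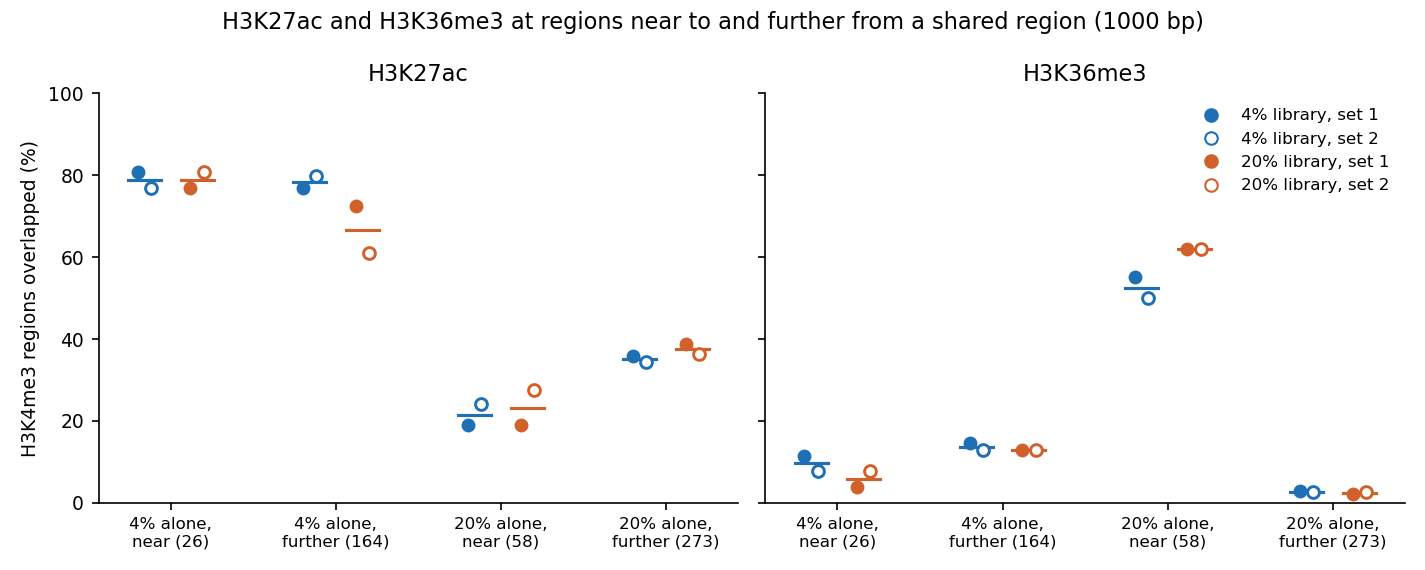
Share of regions (%) overlapped by H3K27ac (left) and H3K36me3 (right), for regions within 1000 bp of a region found in all 4 libraries (near) and further away, by direction, with the number of regions in brackets (4% libraries blue, 20% orange, set 1 filled, set 2 open, bars are means). H3K36me3 stands between 50% and 62.1% at the near regions found at 20% alone and reaches at most 14.6% in the other groups.

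Over all separating regions, the H3K36me3 share differed between the directions by −1.11 to 2.13 points within a library. The mark overlapped 14.2% and 12.1% of regions at 4% alone in the 4% libraries and 11.6% and 12.1% in the 20% libraries, a difference of 1.32 points. It was 0.26 points without the first 4% library and 2.37 points without the second. At regions found at 20% alone it was 12.1% and 10.9% in the 4% libraries and 12.7% and 13% in the 20% libraries, a difference of −1.36 points, or −0.76 points without the second 4% library. It was in both 4% libraries and neither 20% library at 3 of 190 regions at 4% alone (1.58%, with 0.758% over all regions). It was in both 20% libraries and neither 4% library at 3 of 331 at 20% alone (0.906%, with 0.474% over all regions). Regions found in all 4 libraries had 32.9% to 34.4%, and those of them at most 1000 bp wide 4.17% to 4.71%. Gm32650 was the one region among the 15 longest at 4% alone with H3K36me3 in every library, and there was none among the 15 longest at 20% alone.

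Each gene list gave 0 or 1 gene in each direction. Of 20665 protein-coding genes, 114 (0.552%) were overlapped by, or had an end within 1000 bp of, a region found at 4% alone, and 144 (0.697%) one found at 20% alone. Of 40 hypoxia-response genes 0 did in either direction, a count near these background shares, and 30 of the 40 had a region found in all 4 libraries at an end. A region found at 20% alone with 528 and 488 bp lay 3489 bp from an end of Hmox1, the heme-degrading oxygenase. It was outside that window and is named after its values were seen, as are the genes kept with equal peak numbers and those holding more than 1 region. Among 26 genes of glycolysis, glycogen and glucose uptake, Gbe1 had a region at 4% alone and Tpi1 one at 20% alone. None of 18 H3K4 methyltransferase and demethylase genes and none of 28 noradrenergic neuroblastoma genes had one, nor did any of 21 marker genes of other cell types or 18 housekeeping genes. Of 50 replication-dependent histone genes, H4c4, a histone H4 gene, carried a region at 4% alone, chr13:23581710-23582353, with 644 and 295 bp. H3K27ac covered 243 and 95 bp of it in the 20% libraries and none in the 4% libraries. Of 33 interferon-induced genes, Apol9a had a region at 4% alone and Gbp5 one at 20% alone.

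Of 51 neuronal channel and synapse genes Cacnb4 had one at 20% alone, with 445 and 276 bp. Of 22 nitric oxide and cGMP genes Prkg1 did, with the 2 regions given above, which had H3K27ac in 3 and in 4 of the 4 libraries. Of 38 Polycomb-type developmental regulators Pax3, a neural crest transcription factor, had one at 20% alone, chr1:78147032-78147398, with 367 and 285 bp. That region lay 45765 bp from the nearest gene end and carried H3K27ac in all 4 libraries and H3K27me3 in none. With so few genes, each list's share is set by 1 gene at most in each direction and was not tested.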

How the data were processed

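ChIP-seq of 5 histone marks was deposited for N1E115 cells at 4% and 20% oxygen (2 libraries each, 24 samples with 4 inputs, which were not used). The submitters' processing notes name BWA, Picard, SICER, MACS2 and the build mm10, with no versions. Each list belongs to a single library, as its headers show, so replicates were not pooled. The deposited MACS2 lists (H3K4me3, H3K27ac, H3K4me1) give a −log10 score per peak. It is the authors' own value, read as −log10 q, and was used only to rank peaks within a list or filter them. The deposited SICER lists (H3K36me3, H3K27me3) give a read count per island, and only island positions were used here. The interval files of the second libraries are listed under the first ones and were assigned by name, with 100% of entries equal to the second library's own peaks. Read depth is not given by the peak lists, so the number of libraries and list length limit precision.

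Intervals on chromosomes 1 to 19 were merged and overlapped in Python 3.11.15 (pandas 2.3.3, numpy 2.4.6) with a minimum overlap of 1 bp. The region calling was tested on simulated peak lists. Genes and promoter windows came from RefSeq (GRCm38.p6, the assembly of mm10). A region was named by the gene it overlaps, else by the nearest end within 10000 bp. Named were the 15 longest per direction, up to 8 more with H3K27ac in both libraries of the same level alone, up to 8 with H3K27me3 in all 4 libraries or in both of the other level alone, up to 6 per gene list, and the 3 weakest. Shares were compared over libraries with the exact two-sided permutation test (scipy 1.17.1), never over regions, which are not replicates. Alternatives were other score, overlap, merging and window settings, equal list lengths, left-out libraries and the set as a block. The members and gene lists were chosen with earlier results of these data known.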

Additional observations from a re-analysis of the deposited data

Results flagged for a closer look

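The H3K27ac share of regions found at 4% alone was higher in the 4% libraries by 10 percentage points, and that of regions found at 20% alone differed by −2.27 points, 4% minus 20%. In both sets, and in every pair of a 4% and a 20% library, the 2 directions moved opposite ways. At regions found at 20% alone the separation of every pair was lost, at −0.60 points, when H3K27ac had to cover 50% of the region. It was also lost there at −1.64 points with equal H3K4me3 peak numbers and at −1.81 points with equal H3K27ac peak numbers. At regions found at 4% alone it was lost at 3.57 points with equal H3K4me3 peak numbers and at 8.42 points with equal H3K27ac ones. The gap between the directions differed by 12.3 points between the oxygen levels (exact permutation p = 0.333 over 2 against 2 libraries, the smallest this design can give). The difference in the regions found at 4% alone was 4.21 points in set 1 and 15.8 points in set 2. For H3K27ac the flow cells differ between oxygen levels in set 1 and were shared in set 2. List length differed too. On chromosomes 1 to 19 the H3K27ac lists held 59520 peaks at 4% and 67731 at 20% in set 1. In set 2 they held 92687 at 4% and 83654 at 20%. What part the flow cell has was not tested.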

How the results depend on the processing

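The 4% minus 20% differences in mark shares kept their sign in every alternative but 4. H3K36me3 at regions found at 4% alone was −0.45 points with equal H3K4me3 peak numbers, and at regions found at 20% alone it was 0 points there and 0.366 points without regions within 1000 bp of a region found in all 4 libraries. H3K27me3 at regions found at 4% alone was 0 to 2.63 points with 1 library left out. The number of regions moved most. With equal peak numbers 112 were found at 4% alone and 183 at 20% alone, with median covered widths of 570.75 and 574 bp, against 387.75 and 367.5 bp, means of the 2 libraries' medians. Requiring peaks to cover 50% of a region gave 315 at 4% alone. Leaving out 1 H3K4me3 library gave 441 to 6017 regions at 4% alone and 565 to 5170 at 20% alone, since presence in fewer lists then sufficed, and every library moved at least 1 count by over 1.5 times. Within 2500 bp of a gene end lay 21.1% of regions at 4% alone and 22.1% at 20% alone. The cause of the other changes was not tested. The 2 alternatives on nearness to shared regions and gene ends were chosen after seeing the data. With the set number as a replicate block the H3K27ac difference was 10 points at regions found at 4% alone (exact p = 0.5 within sets, the smallest possible). The set number also marks a batch, since set 2 had a flow cell of its own, but no source says that same-numbered libraries share a culture. The number of reads behind each peak is unknown here, so a region absent from a list is not shown to lack the mark.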
